A study of Mus musculus with 96 samples.

Results

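The comparison set 24 cortices of mice that carry the Q140 allele of Htt against 24 cortices of mice that do not, with the Pms1 genotype and sex as terms of the model. All 48 cortex libraries of the series entered, out of 96 libraries in all; the other 48 are the striata of the same animals. The members were chosen by the knock-in named in each sample's title. Every animal was on a C57BL/6 background and was 6 months old, and each genotype had 8 animals, 4 females and 4 males. The 24 knock-in animals were 8 Q140 mice with both Pms1 copies, 8 Q140 Pms1 het mice (Pms1+/-) and 8 Q140 Pms1 null mice (Pms1-/-). The 24 animals without the knock-in were 8 wild-type (WT), 8 Pms1 het and 8 Pms1 null mice. All knock-in animals were heterozygous for Q140, so each kept 1 Htt allele without it. Whole cortex was sequenced: in such samples fewer cells of a type and less RNA per cell cannot be told apart.

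Q140 mice carry an expanded CAG repeat in the first exon of the mouse Htt gene, the change that causes Huntington's disease in people, at the gene's own place in the genome and under its own promoter. The medium spiny neurons of the striatum are the cells most affected in the disease; cortical pyramidal neurons, which project to them, are affected as well. Pms1 encodes a MutL-type mismatch repair protein, and this repair pathway lengthens CAG repeats in somatic cells. Immediate early genes, a group described in depth below, are switched on within minutes of neuronal firing or growth factor signals, and many encode transcription factors.

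Few cortical genes passed the test for a difference between animals with and without the knock-in, and most of those differed by small amounts. The groups were set by the knock-in label, so the repeat and the sequence around it on chromosome 5 were not separated. At a Benjamini-Hochberg adjusted p below 0.05 in edgeR's quasi-likelihood test, which is the meaning of "called" throughout, 313 of 18711 tested genes were called (1.67%). Of these, 125 were higher in knock-in cortex (0.668% of genes tested) and 188 were lower (1%). At an unadjusted p below 0.05 stood 2760 of the 18711 genes, so a gene that was not called is not shown to be unchanged. Only 10 of the 313 differed by more than 1.5-fold and 153 differed by less than 1.1-fold, with a median size of 0.14 on the log2 scale. In the striatum of the same animals 42.1% of genes were called. Genes near Htt on chromosome 5 made up 26 of the 313 and held the largest differences; among the gene lists examined, that of immediate early genes had the most called members, 12 of 21, all lower.

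Library totals lay between 28672325 and 48952339 counts in knock-in cortex and between 29239435 and 49176625 in cortex without the knock-in. All 48 libraries matched the labelled sex, and in all 48 cortical marker genes stood above striatal ones. Among 72 pairs of libraries of 1 genotype and sex, none differed by sampling noise alone (lowest chi-square per degree of freedom 3.34), so none was merged. In 4 libraries, 3 with the knock-in and 1 without, Ttr, a transcript of the choroid plexus, reached 16.8 to 672 CPM, against at most 3.77 CPM in the others. Each animal's code begins with a number whose meaning is not given in the labels used. The number was 16 or more, called a late code below, in 12 of the 24 knock-in animals and 10 of the 24 others, and in every animal without a working Pms1 copy.

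The genes that the alleles concern were near equal. Htt ranged from 220 to 262 CPM (median 241) in knock-in cortex, against 209 to 262 CPM (median 244) in cortex without it. Its log2 fold change was -0.04 (SE 0.02, adjusted p = 0.25), and gene-level counts do not tell the alleles apart. Pms1, measured here between knock-in groups and not between its own genotypes, ran from 2.85 to 4.15 CPM (median 3.47) with the knock-in, against 2.86 to 4.37 CPM (median 3.65) without it. That difference was not called either (log2 fold change -0.03, SE 0.05, adjusted p = 0.82).

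Around Htt, called genes were dense and lay mainly on 1 side. Within 20 Mb of the start of Htt (GRCm38 chromosome 5, start 34761740), 26 of 315 tested genes were called (8.25%), 16 higher and 10 lower. The rest of chromosome 5 had 10 of 970 (1.03%) and the other chromosomes 277 of 17356 (1.6%). Toward lower coordinates, 12 of 98 genes were called within 5 Mb of Htt and 8 of 35 between 5 and 10 Mb, shares of 12.2% and 22.9%. Toward higher coordinates, 2 of 44 were called within 5 Mb and 0 of 22 between 5 and 10 Mb. More of the called genes thus lay at lower than at higher coordinates; the difference between the sides was not tested.

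**Figure D1:**
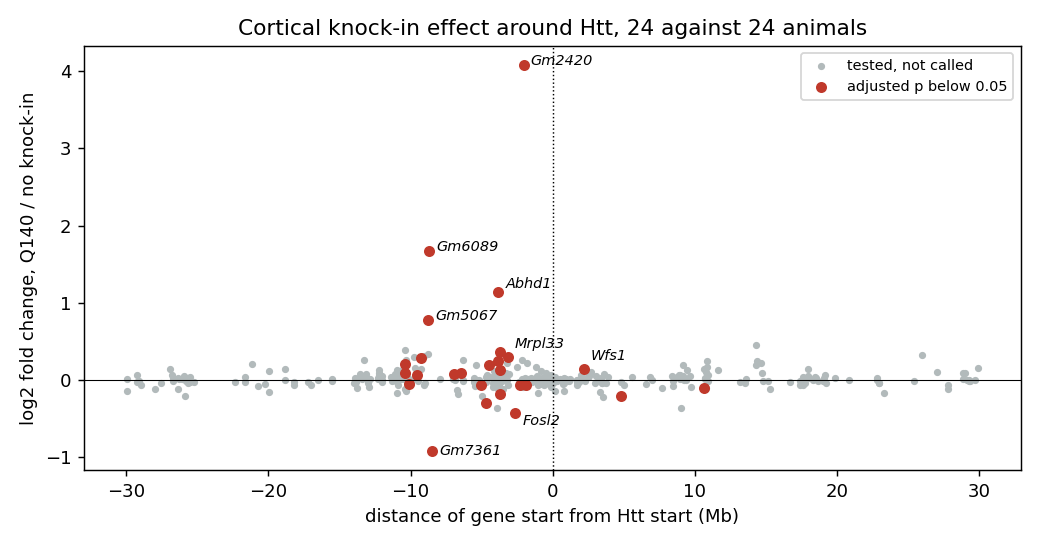
Log2 fold change of knock-in over no knock-in cortex (y axis, 24 against 24 animals) against the distance of each gene's start from the start of Htt on chromosome 5 (x axis, Mb); each point is a tested gene, red where called. The red points lie mainly at negative distances within about 10 Mb, with Gm2420 highest at 4.08.

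Gm2420 had the largest difference of all called genes and was the only tested gene whose 24 and 24 values did not overlap (0.00534% of genes). It is annotated as a transcribed unprocessed pseudogene at chr5:32720330-32736194 and has no assigned function. All 24 knock-in libraries held reads of it, 7 to 38 per library and 526 in sum. Of the libraries without the knock-in, 14 of 24 held any, 0 to 4 per library and 28 in sum. Its log2 fold change came to 4.08 (SE 0.23, adjusted p = 4.8e-20), and it was 4.27, 4.86 and 3.62 on Pms1 wild-type, het and null backgrounds. So the gene was near absent without the knock-in, at a low level even with it.

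Abhd1, at chr5:30950066-30955091, is named for the alpha/beta hydrolase family, but the annotation used lists it as a processed transcript and not as protein-coding. It ranged from 2.99 to 7.20 CPM (median 5.89) in knock-in cortex, against 1.70 to 6.66 CPM (median 2.38) in cortex without the knock-in. All 24 knock-in values stood above the median of the other group, though the groups overlapped through 3 animals described below. On the log2 scale it was higher by 1.15 (SE 0.10, adjusted p = 9.3e-12), with values of 1.17, 1.39 and 0.91 on the wild-type, het and null backgrounds (SE 0.16 each). Abhd1 overlaps Preb on the opposite strand; Preb itself had a log2 fold change of -0.02 (adjusted p = 0.60).

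Mrpl33, a protein of the large subunit of the mitochondrial ribosome, was next in order of p. It ranged from 12.6 to 17.0 CPM (median 14.9) with the knock-in, against 9.99 to 13.3 CPM (median 12.2) without it. Again all 24 knock-in values exceeded the other group's median (log2 fold change 0.30, SE 0.03, adjusted p = 2.7e-10). Cgref1, a secreted protein with EF hands, had 8.75 to 13.0 CPM (median 10.9) in knock-in cortex, against 7.50 to 11.3 CPM (median 9.29), a log2 fold change of 0.24 (SE 0.04, adjusted p = 1.9e-04). Drc1, a part of the dynein regulatory complex of motile cilia, had 14.1 to 18.9 CPM (median 16.4), against 11.7 to 17.8 CPM (median 14.5) without the knock-in, a log2 fold change of 0.20 (SE 0.03, adjusted p = 2.2e-04). These increases were shared by most animals of the knock-in group, with ranges that met in the middle.

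Atraid, a protein induced by all-trans retinoic acid, went the other way. It had 30.2 to 41.2 CPM (median 32.0) in knock-in cortex, against 31.1 to 43.7 CPM (median 37.0) without the knock-in (log2 fold change -0.18, SE 0.03, adjusted p = 5.4e-04). Its direct neighbour Cad, the enzyme that starts pyrimidine synthesis, was higher by 0.14 (SE 0.03, adjusted p = 0.0030). Adjacent genes therefore differed in opposite directions. Tyms, the thymidylate synthase, was lower by a log2 fold change of -0.30 (adjusted p = 0.034), and Htr5a, a serotonin receptor, was higher by 0.08 (adjusted p = 0.034). Farther from Htt, Atg9b, an autophagy protein 10.4 Mb away at lower coordinates, was higher by 0.21 (adjusted p = 0.0073). At higher coordinates, Wfs1, the endoplasmic reticulum protein lost in Wolfram syndrome, was higher by 0.14 (SE 0.03, adjusted p = 0.016), and Qdpr, which regenerates tetrahydrobiopterin, was lower by -0.10 (adjusted p = 0.010).

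A cluster of predicted genes about 8.5 to 8.8 Mb from Htt held 3 more of the large differences. Gm6089 had medians of 1.03 CPM with the knock-in and 0.170 CPM without it (log2 fold change 1.67, SE 0.29), and Gm5067 had 0.847 and 0.451 CPM (0.78, SE 0.16); both are annotated as processed pseudogenes. Gm7361 had 0.142 CPM with the knock-in and 0.239 CPM without it (-0.92, SE 0.20). All 3 were called, at adjusted p of 0.0014, 0.0051 and 0.0091. They are low, and counts of near-identical copies may be split between them, so their folds are uncertain.

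**Figure D2:**
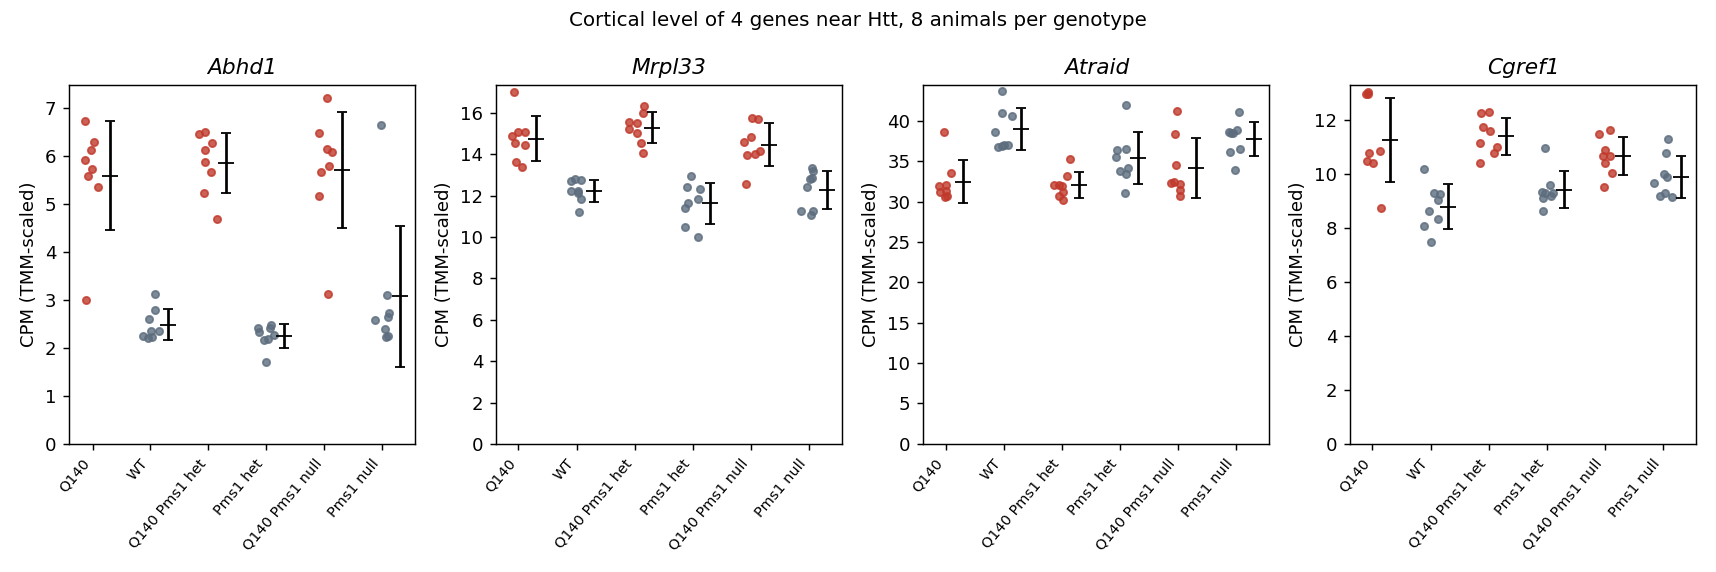
CPM (y axis, linear from 0) of Abhd1, Mrpl33, Atraid and Cgref1 in cortex for each genotype (x axis); points are animals, knock-in in red, and bars give the mean ± SD of 8. The red points of Abhd1 sit near 6 CPM and the grey ones near 2.4 CPM, except 2 red points near 3 and 1 grey point at 6.66.

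In 3 animals, picked out after their values were seen, Abhd1 lay on the other group's side, and the genes along the chromosome sorted in them by position. The Q140 animal had 2.99 CPM of Abhd1 in cortex and 3.23 CPM in striatum, where the other 22 knock-in animals had 4.70 to 7.20 CPM and 5.86 to 7.61 CPM. Its values of Gm6089 (0.130 CPM), Cgref1 (8.75 CPM) and Atraid (38.6 CPM) were also nearest the median of animals without the knock-in. Its values of the 2 genes nearer to Htt, Mrpl33 (17.0 CPM) and Gm2420 (0.520 CPM), were at the knock-in level.

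The Q140 Pms1 null animal was similar, with the change of side 1 gene closer to Htt among the genes followed. It had Abhd1 at 3.13 CPM in cortex and 4.42 CPM in striatum, Gm6089 at 0.150 CPM, Atraid at 41.2 CPM and Mrpl33 at 12.6 CPM, all nearest the median without the knock-in. Its Gm2420 value of 0.851 CPM was that of knock-in animals. In its cortex Drc1 (16.7 CPM), Cad (23.2 CPM) and Gm7361 (0.0501 CPM) did not follow this order and were nearest the knock-in median.

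The Pms1 null animal was the mirror image. It had Abhd1 at 6.66 CPM in cortex and 7.64 CPM in striatum, where the other 23 animals without the knock-in had 1.70 to 3.12 CPM and 2.76 to 4.94 CPM. Its Gm6089 (1.42 CPM), Cgref1 (11.3 CPM) and Atraid (34.0 CPM) were nearest the knock-in median, but Mrpl33 (11.1 CPM) and Gm2420 (0.0537 CPM) were not. Both tissues of each of the 3 animals gave the same side for Abhd1, Gm6089, Gm5067, Atraid, Mrpl33, Cad and Gm2420. Of the other genes followed, Drc1, Cgref1 and Gm7361 were on different sides in the tissues of at least 1 of these animals. The level of Gm2420, the called gene nearest Htt among these, followed the labelled knock-in in all 48 animals. The 3 animals were picked by Abhd1 alone, and other animals may depart from their label at other genes. Among the other 23 animals without the knock-in, Gm6089 reached 1.95 CPM in cortex and 4.89 CPM in striatum. The medians of the other 22 knock-in animals were 1.05 and 4.24 CPM.

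The list of immediate early genes had the most called members of any list. Of the 21 listed genes, all tested, 12 were called lower and 0 higher (1% of all tested genes were called lower), and all 21 had a log2 fold change below 0. Their median log2 fold change was -0.35, against 0.002 over all tested genes. Their summed level was 1294 to 2946 CPM (median 1965) in knock-in cortex, against 1457 to 4187 CPM (median 2680) without the knock-in. The count of called members was 12 with the other size factors, where 185 of all 18711 genes were called lower. It was 11 with library totals only (126 of 18711 lower) and 14 with DESeq2 (282 of 18701 lower). With the first code number as a block it was 10 (0.641% of genes were called lower there). It was 0 in either sex alone, where 2 of 18718 genes were called lower in females and 1 of 18773 in males. Without the 4 libraries with high Ttr it was 6 (119 of 18737 genes called lower), with a median of -0.35. Egr1, Egr2, Egr4, Nr4a2, Nr4a3 and Homer1 lost their calls there, with adjusted p of 0.060 to 0.10. The list was drawn up with earlier results of these animals known, so its direction is not independent evidence.

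Arc, which encodes a synaptic protein that drives endocytosis of AMPA receptors, had one of the largest decreases of the list. It ranged from 137 to 656 CPM (median 343) in knock-in cortex, against 228 to 994 CPM (median 597) in cortex without the knock-in. The ranges overlapped, but 21 of 24 knock-in animals lay below the other group's median. It fell by 0.71 on the log2 scale (SE 0.13, adjusted p = 0.0030), and by background the log2 fold change was -0.92 on Pms1 wild type, -0.59 on Pms1 het and -0.63 on Pms1 null (SE 0.23 each). As group means, Arc was 345 ± 105 CPM in Q140 and 651 ± 178 in WT cortex, 459 ± 143 in Q140 Pms1 het and 693 ± 71.0 in Pms1 het, and 321 ± 161 in Q140 Pms1 null and 499 ± 127 in Pms1 null (SD, n = 8 each).

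The zinc finger factors of the Egr family came next. Egr2 ranged from 3.43 to 31.6 CPM (median 12.8) with the knock-in, against 5.06 to 53.9 CPM (median 22.0) without it, a log2 fold change of -0.71 (SE 0.19, adjusted p = 0.043). Egr1 had medians of 468 and 618 CPM in knock-in and other cortex (-0.38, SE 0.09, adjusted p = 0.023). Egr3, with medians of 99.9 and 130 CPM, fell by 0.33 on the log2 scale (SE 0.07, adjusted p = 0.013), and 23 of 24 knock-in values were below the other group's median. Egr4 fell by 0.29 (SE 0.08, adjusted p = 0.044), with more overlap, since 16 of 24 knock-in values were below that median.

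Among orphan nuclear receptors of the Nr4a family, Nr4a3 ranged from 11.6 to 52.2 CPM (median 33.9) in knock-in cortex, against 17.9 to 67.7 CPM (median 46.6) in the other cortex. Its log2 fold change was -0.50 (SE 0.13, adjusted p = 0.041). Nr4a2 had medians of 12.4 and 16.8 CPM (-0.45, SE 0.11, adjusted p = 0.030). The third member, Nr4a1, had medians of 166 and 207 CPM and was not called (-0.40, SE 0.12, adjusted p = 0.084). Fosl2, an AP-1 subunit that also lies 2.63 Mb from Htt, had 30.1 to 70.7 CPM (median 46.3) with the knock-in, against 32.8 to 102 CPM (median 60.9) without it, a log2 fold change of -0.43 (SE 0.10, adjusted p = 0.021). Fos, an AP-1 subunit of the same family, was not called, at -0.48 (SE 0.16, adjusted p = 0.10), nor was Npas4, at -0.24 (SE 0.17, adjusted p = 0.54).

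The other called members encode secreted, synaptic or signalling proteins. Bdnf, a neurotrophin that cortical neurons supply to the striatum, ranged from 17.0 to 41.6 CPM (median 27.4) in knock-in cortex, against 22.2 to 48.7 CPM (median 32.4) without the knock-in. It fell by 0.27 on the log2 scale (SE 0.07, adjusted p = 0.034). Homer1, a scaffold of metabotropic glutamate receptors, fell by 0.28 (SE 0.07, adjusted p = 0.039), and all 24 knock-in values were below the other group's median. Nptx2, a secreted pentraxin that clusters AMPA receptors, fell by 0.28 (SE 0.06, adjusted p = 0.017). Dusp6, a phosphatase of ERK, fell by 0.30 (SE 0.06, adjusted p = 0.0084).

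**Figure D3:**
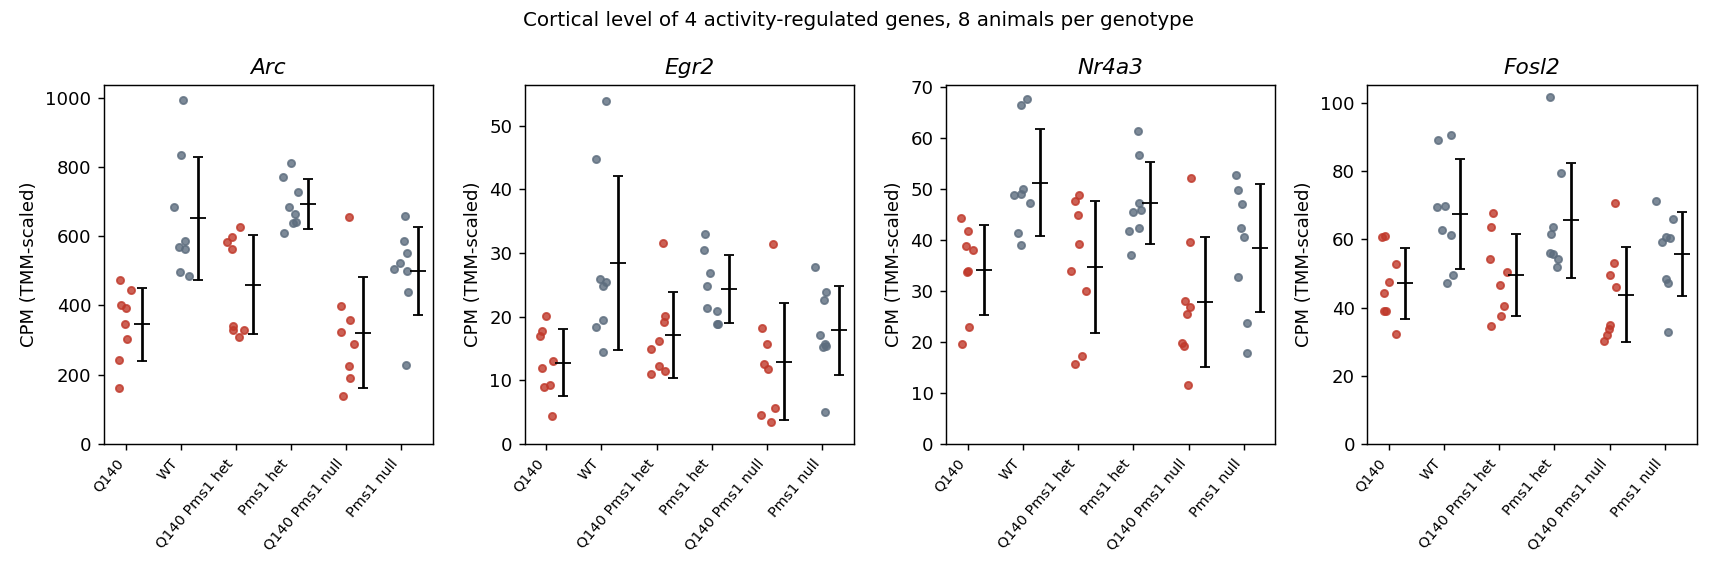
CPM (y axis, linear from 0) of Arc, Egr2, Nr4a3 and Fosl2 in cortex for each genotype (x axis); points are animals, knock-in in red, and bars give the mean ± SD of 8. In each of the 3 pairs the mean of the knock-in group is below that of its own Pms1 genotype. The points of each pair overlap, except that Arc in Q140 cortex stayed below Arc in WT cortex; it averaged 345 CPM in Q140 and 651 CPM in WT cortex.

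Many genes of this kind are switched on through CREB, a factor that binds the half-site CGTCA or its reverse complement TGACG. RefSeq promoter windows (GRCm38.p6), here the 250 bases before the start, were matched for 16 of the 21 genes. At least 1 half-site, read on both strands with overlaps counted, was in 13 of the 16, against 19.8% of all 27025 genes in the table; 3 or more in 1 window were in 5 of the 16, against 0.777% of all genes. Of the 8 called genes with a window, 6 held at least 1 half-site, as did 7 of the 8 that were not called. The full palindrome TGACGTCA was in 2 of the 16. The windows of 3 called genes are shown because they carry several half-sites, which are in capitals, each written 5′ to 3′ on the gene's own strand: Egr4 at chr6:85513590-85513839 (minus strand), Homer1 at chr13:93303507-93303756 (plus strand) and Nr4a2 at chr2:57124004-57124253 (minus strand).
Egr4: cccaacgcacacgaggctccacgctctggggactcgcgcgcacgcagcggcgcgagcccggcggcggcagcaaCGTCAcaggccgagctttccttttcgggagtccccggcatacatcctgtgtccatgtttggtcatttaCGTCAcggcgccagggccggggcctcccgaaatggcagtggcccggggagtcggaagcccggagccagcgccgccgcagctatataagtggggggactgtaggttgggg
Homer1: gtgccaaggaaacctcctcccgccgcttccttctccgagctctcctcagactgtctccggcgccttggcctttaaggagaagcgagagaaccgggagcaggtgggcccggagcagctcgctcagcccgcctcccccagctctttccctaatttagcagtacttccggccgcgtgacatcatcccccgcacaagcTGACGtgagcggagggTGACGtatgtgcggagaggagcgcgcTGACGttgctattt
Nr4a2: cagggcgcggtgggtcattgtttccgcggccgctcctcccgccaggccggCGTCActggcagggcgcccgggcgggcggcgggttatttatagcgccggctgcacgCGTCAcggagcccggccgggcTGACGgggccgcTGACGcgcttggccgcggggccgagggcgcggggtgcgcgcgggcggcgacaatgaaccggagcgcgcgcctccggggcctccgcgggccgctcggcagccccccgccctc
The windows hold 2, 3 and 4 half-sites for Egr4, Homer1 and Nr4a2. They are examples, since Nr4a3 and Egr2, also called, had up to 4 and 2 in a window. Genes that were not called had several as well, such as Nr4a1 with 4 and Dusp1 with 3. A match describes the letters only; binding was not measured, and Dusp6 and Fosl2, both called, had none in this window.

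Other genes were not on the list and were named by their size of change. Some of them, such as Gpr3, Gem and Sik1, are known in neurons to respond to activity or cAMP. How many of the largest decreases are of this kind was not counted. Gpr3, a receptor that raises cAMP without a ligand, ranged from 5.33 to 11.4 CPM (median 8.79) in knock-in cortex, against 8.02 to 16.7 CPM (median 11.7) without the knock-in. All 24 knock-in values were below the other group's median (log2 fold change -0.42, SE 0.07, adjusted p = 2.2e-04). Gem, a small GTPase that restrains calcium channels, ranged from 0.757 to 1.78 CPM (median 1.47), against 1.21 to 2.702 CPM (median 1.94) without the knock-in, and again all 24 lay below that median (-0.52, SE 0.08, adjusted p = 1.9e-04). Sik1, a salt-inducible kinase that acts back on CREB co-activators, ranged from 9.61 to 32.9 CPM (median 17.3), against 10.2 to 42.5 CPM (median 27.0) without the knock-in (-0.54, SE 0.13, adjusted p = 0.019). Trib1, a pseudokinase, fell by 0.46 (adjusted p = 0.0038), Csrnp1, a nuclear factor, by 0.37 (adjusted p = 0.0079), and Sertad1 by 0.32 (adjusted p = 0.0018). Tnfrsf25, a death-domain receptor, fell by 0.55 (adjusted p = 0.015).

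The knock-in effect on the immediate early genes was of like direction in each Pms1 background. The median log2 fold change of the 21 was -0.53 on the wild-type, -0.33 on the het and -0.23 on the null background. All 12 called genes were below 0 in each, which the pooled call itself favours. Within a single background none of the 21 was called. Over all genes, 0.0428%, 0.112% and 0.0428% were called on the wild-type, het and null backgrounds. For 16 of the 21 the lowest value was on the wild-type background. That order was not shown to be a difference: no gene had a called interaction of knock-in and Pms1 genotype, and the lowest adjusted p of the 21 was 0.67. By sex, the median was -0.26 in females and -0.46 in males, and the lowest adjusted p of a sex interaction among the 21 was 0.997. All animals of the null background had late codes, as did 3 Q140, 2 WT and 1 Q140 Pms1 het animals. With a term for late codes, 8 of the 21 were called lower, beside 160 of all 18711 genes. The medians were -0.38 in animals with early codes and -0.23 in animals with late codes, with 1 and 0 of the 21 called; over all genes, 0.627% were called with early codes alone and 0.00504% with late codes alone.

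**Figure D4:**
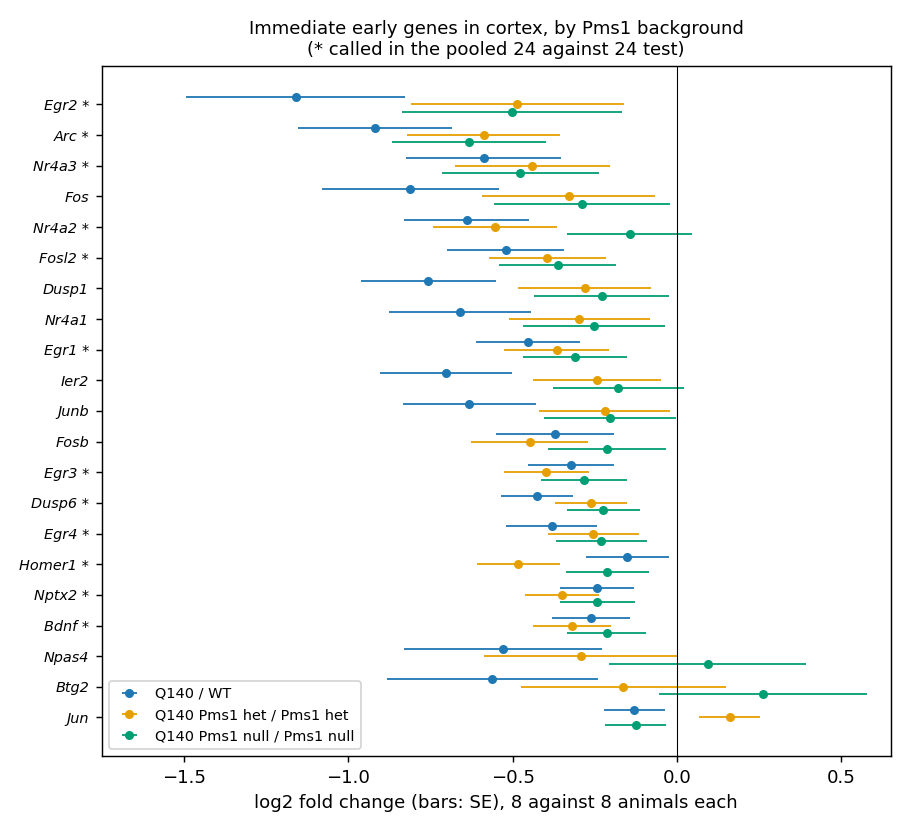
Log2 fold change (x axis, bars are SE) of each of the 21 immediate early genes (y axis) for knock-in against no knock-in cortex within each Pms1 background, 8 against 8 animals; a star marks genes called in the pooled test. All 12 starred genes lie below 0 in the 3 backgrounds, with SE bars that overlap for most.

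In the oligodendrocyte and myelin list 4 of 13 genes were called lower and 0 higher (1% of tested genes were called lower). The median log2 fold change was -0.12, with 11 of the 13 below 0. Ugt8a and Fa2h, enzymes that make myelin galactolipids, fell by 0.19 (adjusted p = 0.037) and 0.17 (adjusted p = 0.034). Cldn11, the claudin of myelin tight junctions, ranged from 31.5 to 52.6 CPM (median 43.6) in knock-in cortex, against 40.5 to 54.7 CPM (median 47.4) without the knock-in. It fell by 0.16 (SE 0.04, adjusted p = 0.023), with 21 of 24 knock-in values below the other median. The count was 4 also with the first code number as a block (0.641% of all genes lower) and without the 4 libraries with high Ttr (119 of 18737 genes lower). It was 1 with early codes alone and 0 with late codes alone, where 0.303% and 0% of all genes were called lower. The summed level of the list was 1339 to 2292 CPM (median 1842) with the knock-in, against 1811 to 2428 CPM (median 2090) without it. By background the medians were -0.01 on Pms1 wild type, -0.18 on het and -0.09 on null.

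In the microglial list 2 of 12 genes were called, both higher (0.668% of tested genes were called higher). All 12 had a log2 fold change above 0, with a median of 0.04. P2ry12, a purinergic receptor that marks resting microglia, had 29.8 to 37.9 CPM (median 33.4) in knock-in cortex, against 24.5 to 36.6 CPM (median 31.1) without it (log2 fold change 0.12, SE 0.03, adjusted p = 0.027). Cx3cr1, the fractalkine receptor, was higher by 0.10 (SE 0.03, adjusted p = 0.038), with 0.06, 0.05 and 0.19 on the wild-type, het and null backgrounds. For P2ry12 the values by background were 0.03, 0.11 and 0.22 (SE 0.05 each). In the annotation Cx3cr1 spans Csrnp1 on the same strand, so reads of the pair may be shared. Without the 4 libraries with high Ttr 1 of the 12 was called, beside 98 of 18737 genes called higher. With early or late codes alone 0 were called, beside 60 of 18495 and 1 of 19847 genes called higher.

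Of the markers of cortical neuron classes, none of the 11 tested upper-layer genes, 12 layer 5 genes, 14 pan-excitatory genes and 22 interneuron genes was called, with median log2 fold changes of 0.03, -0.08, -0.01 and -0.02. In the layer 6 list, Nr4a2, also an immediate early gene, was the only 1 of 11 called. None of 12 astrocyte, 8 oligodendrocyte precursor, 14 endothelial and mural, 8 meningeal, 8 choroid plexus or 5 blood genes was called. Beside 1.67% of all tested genes called, a count of 0 in lists this short does not show that a cell class was unchanged. The medians of the choroid and blood lists were 0.52 and 0.78, and summed choroid levels ran from 6.47 to 760 CPM (median 9.10) with the knock-in, against 7.08 to 615 CPM (median 8.51) without it. For blood the sums were 0.181 to 42.4 CPM (median 5.89), against 0.0899 to 21.1 CPM (median 2.85). The part of these admixed tissues in the results above was not tested beyond leaving out the 4 libraries.

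Of 17 neuropeptide genes, 3 were called lower, beside 1% of all tested genes, the share against which the counts of the lists below also stand. Vgf, a precursor of secreted neuronal peptides that neurotrophins induce, ranged from 218 to 360 CPM (median 276) with the knock-in, against 255 to 414 CPM (median 328) without it, and fell by 0.19 (SE 0.04, adjusted p = 0.012). Cartpt fell by 0.25 (adjusted p = 0.040) and Scg2, a granin of dense-core vesicles, by 0.10 (adjusted p = 0.041). In the release machinery, 2 of 23 were lower, Snap25, a SNARE protein, by 0.06 (adjusted p = 0.042) and Bsn, an active zone scaffold, by 0.08 (adjusted p = 0.034). None of 28 glutamate and GABA receptor genes, 30 potassium channel genes or 30 sodium, calcium and HCN channel genes was called. Rgs4, a brake on G-protein signalling, was the only 1 of 26 called in its list, lower by -0.08 (SE 0.02, adjusted p = 0.016).

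Of 15 p53 targets, 2 were called, beside 1% of all tested genes called lower. Plk2 and Mdm2 were lower, by -0.09 (adjusted p = 0.020) and -0.08 (adjusted p = 0.033). Of 15 cytosolic chaperones, Cryab was lower by -0.13 (adjusted p = 0.040) and Dnajb6, which lies 5.03 Mb from Htt, by -0.07 (adjusted p = 0.046). Of 16 glucocorticoid and clock genes, Bhlhe40, a repressor in the clock that activity also induces, was lower by -0.21 (adjusted p = 0.028). None of 22 cholesterol synthesis, 15 unfolded protein response or 16 interferon-stimulated genes was called.

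Other increases were single genes of varied function. Slc22a3, a low-affinity transporter of monoamines, ranged from 0.660 to 2.05 CPM (median 1.39) in knock-in cortex, against 0.546 to 1.45 CPM (median 1.01) without it (log2 fold change 0.42, SE 0.10, adjusted p = 0.016). Its values were 0.32, 0.69 and 0.26 on the Pms1 wild-type, het and null backgrounds. Tlr13, a receptor of bacterial ribosomal RNA, was higher by 0.30 (adjusted p = 0.028), Fadd, an adaptor of death receptors, by 0.27 (adjusted p = 0.0079), Bbs10, a chaperonin-like protein of the cilium, by 0.24 (adjusted p = 0.0047) and Plppr1, a neuronal membrane protein, by 0.24 (adjusted p = 0.0071). Mir124-2hg, a host transcript of the neuronal microRNA miR-124, was among the increases with the smallest p, at 0.13 (SE 0.02, adjusted p = 0.0011). Among other decreases with small p were Slc38a2, a neutral amino acid transporter, at -0.18 (adjusted p = 0.0030), and Hexim1, an inhibitor of the elongation factor P-TEFb, at -0.14 (adjusted p = 0.0021).

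With the first code number as a block, 8 of the genes described lost their call: Egr4, Homer1, Mdm2, Cartpt, Tlr13, Snap25, Cryab and Dnajb6, with adjusted p of 0.055 to 0.077. Without the 4 libraries with high Ttr, 15 did. Besides the 6 immediate early genes already named, these were Wfs1, Htr5a, Cx3cr1, Mdm2, Cartpt, Scg2, Tlr13, Bhlhe40 and Cryab, with adjusted p of 0.051 to 0.12; all kept their direction.

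The striatum of the same animals was used to see which cortical effects were shared. Of the 313 called genes, 309 were tested in striatum and 214 were called there, 198 in the same direction and 16 in the opposite one, beside a background of 42.1% of genes called in striatum. The difference of the effect between tissues was called for 100 of the 313, against 22.5% of all genes tested for it, with the 2 tissues sharing their animals. A list of 28 genes had been chosen for their knock-in response in the striatum of these animals, so their striatal values are no finding here; of the 22 tested in cortex only Egr2 was called. Of 21 beta protocadherin genes, 0 were called in cortex (median -0.01) and 19 were called higher in striatum (median 0.35), a list likewise drawn up with striatal results known.

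Some genes differed between the tissues in size or direction. Ppp1r16b was lower in both tissues, by -0.08 in cortex (adjusted p = 0.017) and -0.52 in striatum (adjusted p of the difference 2.1e-17). Rgs4 likewise had -0.08 and -0.51 (3.5e-12). Slc22a3 and P2ry12, higher in cortex, were lower in striatum, at -0.19 and -0.08, and both tissue differences were called (adjusted p = 1.3e-06 and 4.5e-05).

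Of the 12 immediate early genes called in cortex, 10 were also called lower in striatum, where 19.8% of genes were called lower, and the exceptions were Bdnf (-0.08) and Nr4a2 (0.16). Both were low in striatum. Bdnf averaged 0.338 CPM there with the knock-in and 0.349 CPM without it, and Nr4a2 averaged 0.937 and 0.823 CPM. At such levels a decrease could hardly be seen, so neither gene, nor the tissue difference of Nr4a2 below, shows a response confined to cortex. The decrease was larger in striatum for 5 of the 12 by a called tissue difference, and for 8 with the animal as a block, which added Egr1, Nr4a3 and Dusp6; with the block Nr4a2 had a larger decrease in cortex (adjusted p = 0.039). Among the 5 were Egr2 (-0.71 in cortex, -1.55 in striatum) and Egr4 (-0.29 and -0.77). For Arc the effects were -0.71 in cortex and -0.81 in striatum, a difference of 0.11 that was not called (adjusted p = 0.78). Near Htt, 15 of the 26 called genes were called in the same direction in striatum, where 154 of the 304 genes tested within 20 Mb were called in either direction. Abhd1 was higher there by 0.70 (SE 0.07) and Mrpl33 by 0.15 (SE 0.02), each less than in cortex (adjusted p of the difference 0.0028 and 0.0012), and Atraid was lower by -0.22. Drc1 was lower in striatum, at -0.08, and its tissue difference was called (adjusted p = 1.7e-08).

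**Figure D5:**
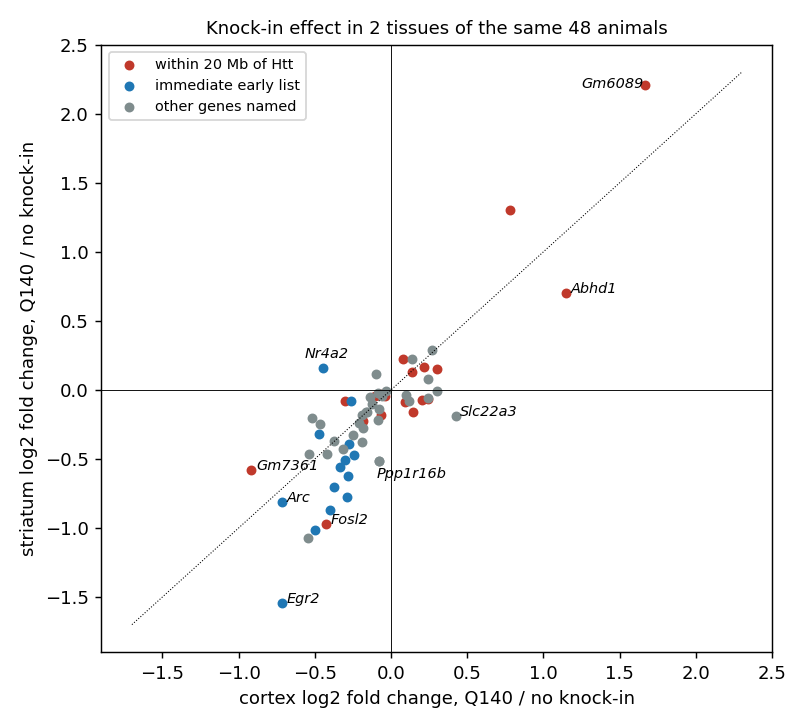
Log2 fold change of knock-in over no knock-in animals in striatum (y axis) against cortex (x axis) for the genes named in the text, except Gm2420; the dotted line marks equal effects, and both tissues are from the same 48 animals. Immediate early genes (blue; Fosl2 in red) lie mainly below the dotted line in the lower left, and Slc22a3 lies to the right of 0 and below it.

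Animals left out of a set of calls were used as a check on it. The 32 animals with a Pms1 het or null genotype gave 40 called genes; in the other 16 (Q140 against WT), 35 of the 40 had the same direction, 17 at an unadjusted p below 0.05, beside 6.53% of all genes at that p, and 0 had the opposite direction at that p. Calls made without the het background numbered 16, and of the 15 tested in it, 15 had the same direction, 9 at that p (16.9% of all genes). Calls made without the null background numbered 129, of which 108 had the same direction in it, 36 at that p (6.97% of all genes) and 1 the opposite at that p. Within 20 Mb of Htt, the same direction was seen for 8 of 8, 3 of 3 and 14 of 15 calls in the wild-type, het and null backgrounds. Of these, 6, 3 and 9 were at that p. For all other genes it was seen for 27 of 32, 12 of 12 and 94 of 114, with 11, 6 and 27 at that p. Within 1 background at a time, 8 genes were called on Pms1 wild type, 21 on het and 8 on null, 0.0428%, 0.112% and 0.0428% of tested genes. All 313 genes had the same direction in both sexes and 307 in all 3 backgrounds, which the pooled call itself favours; 32.8% of all tested genes did so across backgrounds.

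No gene's response to the knock-in was called different between Pms1 genotypes. edgeR's interaction test gave 0 genes, with 1391 of 18711 at an unadjusted p below 0.05, and DESeq2 gave 0 as well. The contrast of Pms1 het with wild type had 1525 genes at that p and that of null with wild type had 1020, and 0 were called in each. Between sexes, 0 genes were called by edgeR, with 833 at that p, and 0 by DESeq2. The sizes given above for each background therefore stand as values without a called difference between them.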

How the data were processed

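Stranded TruSeq libraries of cortex and striatum RNA were sequenced from 48 mice, per the labels' protocols. The first table, as deposited, gives unnormalized read counts (whole numbers, judged from the values); the second gives FPKM by the authors. The submitters' processing notes list STAR 2.7.5c, SAMtools 1.10, HTSeq 0.12.3 and mouse build GRCm38 (mm10), with no roles. No source used here states how strand was set in counting, so overlapping genes are uncertain. Coordinates came from GENCODE M21, matched for 48349 of 48795 genes by identifier. 

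From the counts, edgeR 4.0.16 in R 4.3.3 (TMM scaling, filterByExpr by genotype, robust quasi-likelihood fit) tested knock-in with Pms1 genotype and sex as terms over the 48 cortex libraries; 18711 genes passed the filter. Effects within Pms1 genotypes, by sex and between tissues were contrasts or interactions; adjusted p-values are edgeR's (Benjamini-Hochberg, over all genes tested). CPM are TMM-scaled. SE is the log2 fold change divided by the root of F. Alternatives used DESeq2 1.42.0 and limma 3.58.1 (voom, and FPKM on log2(value + 0.1)). Only the pooled edgeR fit was tested on simulated counts, which were drawn independently for each library. 

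Replicate numbers were given in accession order and pair nothing, and whether animals share a litter is not given, so p-values measure the spread between these animals. The tissues pair by the animal code in the titles. Named genes were Htt and Pms1, the 15 largest increases and decreases among called genes (mean of at least 1 CPM, named gene, same direction in 3 Pms1 genotypes), the 10 smallest p each way, called genes within 20 Mb of Htt, and, from each of 33 lists, no more than 3 called members each way. Not all of these are printed; Ugt8a and the other immediate early genes named were chosen after their values were seen. The members and lists were chosen with earlier results of these data known.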

Additional observations from a re-analysis of the deposited data

Results flagged for a closer look

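In the 6 genotypes, 114 groups of 8 cortices (19 genes) were searched for an animal whose gap to its nearest neighbour took a share of the group's range above Dixon's 95% critical value; chance gives about 1 in 20, and 12 were found. Near Htt, Abhd1 had a low Q140 animal (2.99 CPM, next 5.36), a high Pms1 null animal (6.66 CPM, next 3.11) and a low Pms1 het animal (1.70 CPM, next 2.17). The Q140 animal low in Abhd1 was also the highest Q140 animal for Mrpl33 (17.0 CPM, next 15.1) and Atraid (38.6 CPM, next 33.5). Another Q140 animal was highest for Gm2420 (0.740 CPM, next 0.525), and a Pms1 het animal was highest for Cgref1 (11.0 CPM, next 9.58). Among the other genes, a Q140 Pms1 het animal was highest for Egr2 (31.6 CPM, next 20.1). Single Pms1 het animals were highest for Bdnf (46.9 CPM, next 36.7), Gem (2.48 CPM, next 1.74) and P2ry12 (35.1 CPM, next 32.1). A WT animal was lowest for Htt (209 CPM, next 234).

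For 26 of 66 genes described, the knock-in effect differed between cortex and striatum by the test of the difference itself. The cortical minus the striatal log2 fold change near Htt was -1.29 for Gm2420, 0.45 for Abhd1, 0.15 for Mrpl33, 0.31 for Cgref1, 0.28 for Drc1, 0.31 for Wfs1, -0.14 for Htr5a, 0.12 for Ppp1cb, a phosphatase subunit, and 0.18 for Rbm33, an RNA-binding protein. It was 0.84 for Egr2, 0.55 for Fosl2, 0.23 for Egr3, 0.49 for Egr4, 0.34 for Homer1, 0.19 for Vgf and 0.53 for Tnfrsf25, all larger decreases in striatum. For genes of striatal neurons and signalling it was 0.44 for Ppp1r16b, 0.44 for Rgs4, 0.14 for Plk2 and -0.21 for Scg2. It was 0.21 for P2ry12, 0.15 for Cx3cr1 and 0.32 for Tlr13, genes of innate immune cells. It was 0.62 for Slc22a3, 0.31 for Bbs10 and 0.17 for Plppr1.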

How the results depend on the processing

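The 313 calls stayed within 1.5 times under 8 of 18 alternatives. The exceptions with all 48 libraries were 470 with DESeq2 (303 of the 313 shared), 176 with no filter and 196 with the first code number as a replicate block in limma voom. The other exceptions were subsets, which hold fewer animals. They were 116 with early codes alone, 1 with late codes alone, 9 in females alone and 5 in males alone. They were also 40 without the Pms1 wild-type background, 16 without the het background and 129 without the null background. The subsets that leave out 1 background hold equal numbers of animals. Within 1 background, 1369 genes on Pms1 wild type, 2850 on het and 1399 on null had an unadjusted p below 0.05. Why the calls were fewest without the het background was not tested. Of the 196 calls with the block, 194 were shared with the 313. Limma voom without the block gave 342, and the correlation within numbers was 0.15. The share of called genes that were higher was 39.9%, but 59.9% with library totals only (188 higher, 126 lower), which moved the median of all genes to 0.01, and 59.1% with FPKM; the cause was not tested. Without the 4 libraries with high Ttr, an alternative chosen after seeing the data, 217 were called, 183 of them shared, with 6 of 21 immediate early genes. Libraries of a background fitted alone gave 70 calls on Pms1 het and 1 on null. The animal as a replicate block gave 5425 tissue differences instead of 4446.

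Of the 61 called genes named, 61 kept their direction in all alternatives and 60 lost their call in at least 1; Gm2420 kept its call in each alternative that gave it an adjusted p, late codes alone included. Values that changed sign belonged to genes not called: Pms1 in males alone (0.038) and Npas4 with late codes alone (0.078) and in females alone (0.026). Depth limits genes such as Gm2420 most, at 0 to 38 reads a library.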
